A study of Mus musculus with 13 samples.

Results

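Cardiac macrophage markers are described here as 10 genes, Cd68, Csf1r, Cd163, Mrc1, Lyz2, C1qa, C1qb, C1qc, Fcgr1 and Cx3cr1, chosen by symbol as genes of macrophages and monocytes. They are 10 of the 24061 gene symbols counted in 13 mouse hearts, and all 10 were found and passed the filter on low counts. The hearts came from male C57BL/6N mice aged 13 weeks on a chow diet, and each gave 1 library of polyA RNA. They fall into E3A/E3A (5 hearts, with the E3A knock-in on both alleles), WT/E3A (4 hearts, with it on 1 allele) and WT/WT (4 hearts). E3A alters CPT1B, the muscle form of carnitine palmitoyltransferase 1, so that malonyl-CoA, its natural inhibitor, acts on it less. It is a knock-in and so not limited to 1 cell type of the heart. It leaves no mark in counts per gene, so the level of Cpt1b does not check the genotype labels. The labels note 4 libraries as potential outliers: E3A/E3A replicates 1 and 2, WT/E3A replicate 1 and WT/WT replicate 1. Calls and medians over the members are therefore given for all 13 libraries and for the other 9, which are 3 per genotype, and other values name the libraries they cover.

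The healthy heart holds resident macrophages that settle before birth, renew themselves in place and lie between the cardiomyocytes and along vessels. They take up debris, dying cells and mitochondria shed by cardiomyocytes, and they depend on signals through the CSF1 receptor. Monocytes from blood join them after injury and carry the chemokine receptor CCR2, which most long-lived resident cells lack. In RNA from a whole heart, fewer cells of a type and less RNA per cell cannot be told apart.

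The libraries held 20.1 to 52.6 M counted reads, and 14387 genes were tested with all 13 libraries and 14373 with the 9. The spread between hearts of a genotype, as a biological coefficient of variation from edgeR, came to 28.9% over the 13 and 7.85% over the 9. The labels describe separate hearts, so p-values measure the spread between these hearts. Levels are CPM, counts scaled to a common library size with TMM factors over the 13 libraries. A gene was called where edgeR's adjusted p, taken over all genes tested, was under 0.05. Among the marker lists the 8 cardiomyocyte genes were the most abundant and summed to between 81817 and 177670 CPM. T and NK cell, B cell and neutrophil markers summed to between 2.04 and 6.73 CPM in every heart.

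The members with the highest levels per length encode lysozyme and the chains of complement C1q. Over the 9 libraries, and per kilobase of exon, Lyz2 averaged 58.3 ± 6.61 CPM (SD, n = 9), C1qa 25.3 ± 1.89 CPM, C1qb 19.7 ± 1.82 CPM and C1qc 13.3 ± 1.30 CPM. Csf1r followed at 7.01 ± 0.43 CPM per kilobase. With these lengths, the ranges of these 5 genes over the 9 hearts did not overlap with those of their neighbours in the order. The place of C1qc depends on the length used. Its annotated exons joined span 1931 bases and its longest transcript 1203, while both lengths are 1040 for C1qa and 1088 for C1qb. Mrc1 (5.02 ± 0.39), Cd163 (3.91 ± 0.78) and Cd68 (3.88 ± 0.35 CPM per kilobase) overlapped in turn. Cx3cr1 (0.99 ± 0.41) and Fcgr1 (0.59 ± 0.09 CPM per kilobase) were the lowest, and their ranges overlapped as well.

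No member was called between genotypes. With E3A/E3A set against WT/WT, edgeR called 0 of 10 members, beside 0.00695% of all genes with 13 libraries and 0.271% with 9. Heterozygotes (WT/E3A) against WT/WT gave 0 of 10 members, beside 0% and 0.0209% of all genes. The comparison of E3A/E3A with WT/E3A gave 0 of 10, beside 0% and 0.0417%. In the same order, 1, 1 and 1 members had an unadjusted p under 0.05 with 13 libraries and 2, 0 and 1 with 9. Of all genes, 1.2%, 0.813% and 1.45% passed that level with 13 libraries and 7.69%, 6.36% and 6.91% with 9. DESeq2, limma-voom and limma-voom with library quality weights each called 0 of 10 in every comparison. The share of all genes that these methods called is not given here, so these counts have no baseline. The comparisons share hearts: those against WT/WT use the same WT/WT hearts, and each pair shares 1 genotype.

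In the fits on genotype alone, the direction of the members in E3A/E3A against WT/WT was mostly upward and the size small. Their median log2 fold change was 0.14 with 13 libraries (7 higher, 3 lower) and 0.14 with 9 (9 higher, 1 lower), against -0.02 and 0.00 for all genes tested. The WT/E3A hearts had medians of 0.09 and 0.04, over WT/WT, with 7 of 10 members higher in both. Between E3A/E3A and WT/E3A they were 0.02 (6 higher) and 0.09 (8 higher). Sample titles start with 1 of 4 prefixes of unstated meaning, and with these as a block in the 13 libraries the median was 0.10 (6 higher) for E3A/E3A against WT/WT and 0.07 (8 higher) for WT/E3A against WT/WT. Under that block the direction turned for E3A/E3A against WT/E3A, at -0.06 (4 higher, 6 lower). In the 9 libraries the block gave 0.11 for E3A/E3A against WT/WT, with 6 higher and 4 lower. The other pairs there had 0.04 (6 higher) and 0.08 (8 higher). WT/WT replicates 3 and 4 are alone in their prefix, so for them genotype and prefix cannot be told apart. With the potential outlier note as a covariate in the 13 libraries, E3A/E3A against WT/WT had 0.15 (6 higher, 4 lower). The sum of the 10 members was 289 ± 29.5 CPM in E3A/E3A (SD, n = 5), 287 ± 72.2 CPM in WT/E3A (n = 4) and 267 ± 50.6 CPM in WT/WT (n = 4). In the 9 libraries it was 269 ± 15.7 CPM in E3A/E3A, 251 ± 10.7 CPM in WT/E3A and 244 ± 23.4 CPM in WT/WT (n = 3 each), and the ranges of the genotypes overlapped.

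**Figure D1:**
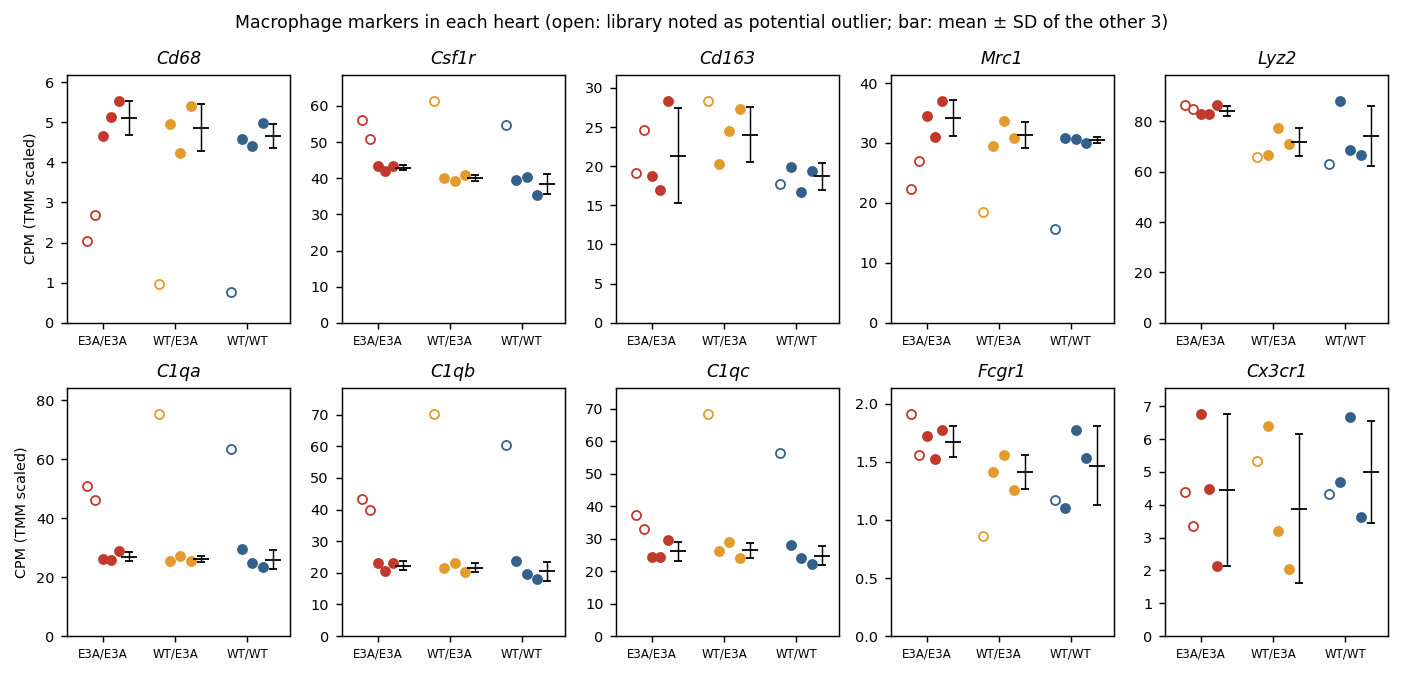
Level of each macrophage marker in each heart (vertical axis, CPM with TMM scaling), by genotype. Open points are libraries noted as potential outliers, filled points the others, and the black bars give the mean and SD of the 3 filled points of a genotype. The open points stand above the filled ones for C1qa, C1qb, C1qc and Csf1r and below them for Cd68 and Mrc1.

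Csf1r encodes the receptor for CSF1 and IL-34, the signal on which tissue macrophages depend. Its level was 56.0, 50.9, 43.4, 42.1 and 43.5 CPM in E3A/E3A replicates 1 to 5, 61.3, 40.1, 39.3 and 40.8 CPM in WT/E3A replicates 1 to 4, and 54.7, 39.6, 40.2 and 35.3 CPM in WT/WT replicates 1 to 4. The 4 noted libraries were the 4 highest, and among the other 9 the 3 E3A/E3A hearts lay above all 6 others. In these 9, all E3A/E3A hearts lay above all WT/WT hearts for 7.19% of all genes tested. They lay above all WT/E3A hearts for 5.69%, and the share with both was not counted. The Csf1r log2 fold change in E3A/E3A over WT/WT was 0.15 (SE 0.17, 95% interval -0.22 to 0.52) with 13 libraries. With 9 it was 0.17 (SE 0.06, interval 0.04 to 0.29, edgeR adjusted p = 0.418). Within the title prefix C3 both E3A/E3A hearts (43.4 and 43.5 CPM) were above the WT/E3A heart (40.1 CPM) and the WT/WT heart (39.6 CPM). Within C2, where all libraries are noted ones, the E3A/E3A hearts (56.0 and 50.9 CPM) lay on either side of the WT/WT heart (54.7 CPM). The end of Csf1r overlaps Hmgxb3 on the opposite strand, 16.8% of its 100-base stretches occur in Hmgxb3 transcripts too, and the counting's strand setting is not given in the sources used here.

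Mrc1, the mannose receptor CD206, takes up glycoproteins and marks resident and alternatively activated macrophages. It had 22.3, 27.0, 34.5, 31.0 and 37.0 CPM in E3A/E3A replicates 1 to 5, 18.4, 29.5, 33.6 and 30.8 CPM in WT/E3A replicates 1 to 4, and 15.7, 30.8, 30.7 and 29.9 CPM in WT/WT replicates 1 to 4. The noted libraries were the 4 lowest. In the 9 libraries the E3A/E3A hearts were above the WT/WT hearts, by 0.16 on the log2 scale (SE 0.07, interval 0.01 to 0.31, edgeR adjusted p = 0.611), and overlapped with WT/E3A. With 13 libraries the log2 fold change was 0.18 (SE 0.23, interval -0.33 to 0.69). Csf1r and Mrc1 are thus 2 of 10 members with every E3A/E3A heart above every WT/WT heart in the 9 libraries, which holds for 7.19% of all genes tested. With 13 libraries that count was 0 members, against 0.299% of all genes.

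Lyz2, lysozyme of macrophages and neutrophils, was steady over the E3A/E3A hearts, at 86.3, 84.9, 83.0, 82.9 and 86.5 CPM in replicates 1 to 5. It had 66.0, 66.8, 77.6 and 71.0 CPM in WT/E3A replicates 1 to 4, and 63.1, 88.1, 68.5 and 66.5 CPM in WT/WT replicates 1 to 4. All 5 E3A/E3A hearts were above all 4 WT/E3A hearts, while WT/WT replicate 2 was the highest of the 13. The log2 fold change over WT/E3A was 0.27 (SE 0.10, interval 0.04 to 0.50) with 13 libraries and 0.23 (SE 0.10, edgeR adjusted p = 0.721) with 9. Lyz2 was the only member of 10 without overlap there with 13 libraries, against 0.507% of all genes, and Lyz2 and Csf1r were the members without overlap with 9, against 5.69%. For 0 of 10 members were all 5 E3A/E3A hearts above all 8 others, which holds for 0.0556% of all genes.

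Against WT/WT, the Lyz2 difference turned on 1 control heart. The E3A/E3A value was 0.24 (SE 0.10, edgeR adjusted p = 1) with 13 libraries and 0.18 (SE 0.10, interval -0.05 to 0.40, adjusted p = 0.767) with 9. Without WT/WT replicate 2 the 9-library value was 0.32 (edgeR adjusted p = 0.0697), the lowest adjusted p of any member under any setting tried. Within prefix C3 the E3A/E3A hearts, at 83.0 and 86.5 CPM, were below the WT/WT heart at 88.1 CPM. Within C2 the E3A/E3A hearts had 86.3 and 84.9 CPM against 63.1 CPM in WT/WT. Lyz2 shares 24 of 1217 stretches of 100 bases with its neighbour Lyz1, which itself stood at 0.197 to 0.757 CPM.

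Cd68, a lysosomal glycoprotein used as a general macrophage marker, had 2.04, 2.68, 4.66, 5.12 and 5.53 CPM in E3A/E3A replicates 1 to 5. It had 0.963, 4.94, 4.24 and 5.41 CPM in WT/E3A replicates 1 to 4, and 0.779, 4.59, 4.41 and 4.99 CPM in WT/WT replicates 1 to 4. The noted libraries were the 4 lowest by a wide gap, and the genotypes overlapped among the other 9. In E3A/E3A over WT/WT the interval of its log2 fold change ran from -1.06 to 1.30 with 13 libraries and from -0.14 to 0.38 with 9, around 0.12 in both. Fcgr1, the high-affinity receptor for IgG (CD64), was the least abundant member, with 25 to 75 reads per library. It averaged 1.70 ± 0.159 CPM in E3A/E3A (SD, n = 5), 1.27 ± 0.30 CPM in WT/E3A (n = 4) and 1.39 ± 0.315 CPM in WT/WT (n = 4), with overlap between all of them. In E3A/E3A over WT/WT its log2 fold change was 0.29 (interval -0.13 to 0.72) with 13 libraries and 0.21 (-0.22 to 0.63) with 9. Its spread over the 9 hearts, a coefficient of variation of 15.2%, was close to the 14.9% that counting error alone gives at this depth.

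**Figure D2:**
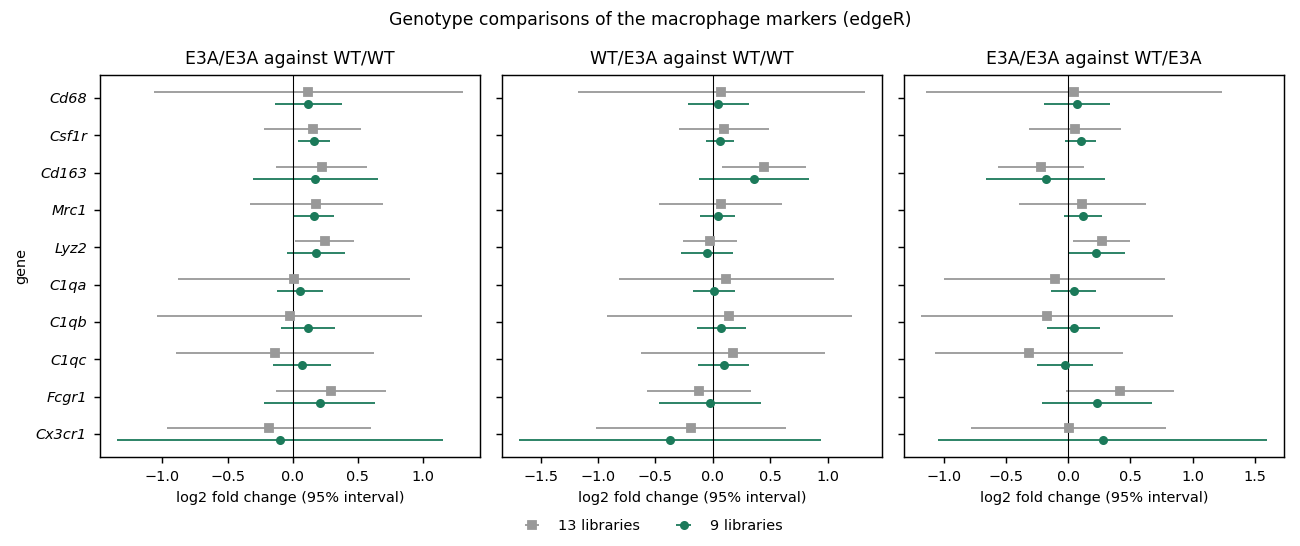
Log2 fold change of each macrophage marker with its 95% interval (horizontal axis), with 1 panel for each pair of genotypes. Grey squares are the fit on 13 libraries and green circles the fit on the 9 not noted as potential outliers. The C1qa, C1qb, C1qc, Cd68 and Mrc1 intervals are narrower with 9 libraries, while those of Cd163 and Cx3cr1 are wider.

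C1qa, C1qb and C1qc encode the 3 chains of C1q, the recognition molecule of the classical complement pathway, which tissue macrophages make and assemble. They lie side by side within 18719 bases of mouse chromosome 4 (GRCm38, 136880126 to 136898844, minus strand). Promoter windows of 250 bases were taken for C1qb (chr4:136886201-136886450) and C1qc (chr4:136892915-136893164), from RefSeq for GRCm38.p6. The C1qb window lies before the annotated start of the gene. The C1qc window reaches past its gene's annotated start, 136892936, and so holds a few bases of the gene. These windows are printed because these genes kept nearly constant proportions across the 9 hearts. Both are read 5′ to 3′ on the minus strand. The capitals mark GAGGAA, or TTCCTC where it lies on the other strand, which is the core of sites for PU.1, the lineage factor of macrophages encoded by Spi1.
C1qb: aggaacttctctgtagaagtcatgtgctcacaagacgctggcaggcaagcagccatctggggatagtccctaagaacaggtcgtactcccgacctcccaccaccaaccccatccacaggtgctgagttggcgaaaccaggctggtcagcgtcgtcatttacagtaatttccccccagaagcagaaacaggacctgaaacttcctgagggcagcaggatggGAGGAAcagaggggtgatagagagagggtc
C1qc: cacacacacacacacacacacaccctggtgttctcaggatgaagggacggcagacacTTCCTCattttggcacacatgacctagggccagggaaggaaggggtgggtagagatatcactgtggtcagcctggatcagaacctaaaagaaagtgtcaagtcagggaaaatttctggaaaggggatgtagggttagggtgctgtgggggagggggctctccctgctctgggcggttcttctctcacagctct
Each window holds 1 match. Of the 8 members with a promoter entry, 5 hold GAGGAA on either strand (C1qb, C1qc, Mrc1, Fcgr1 and Cd68), and 23.3% of all 32851 promoters of the same length do. Such a match is a description of letters and not of binding.

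The 3 C1q genes were present in nearly fixed proportions in the 9 libraries. C1qb stood at 0.767 to 0.882 times C1qa (coefficient of variation 4.32%) and C1qc at 0.930 to 1.06 times C1qa (4.59%), in CPM. Other pairs of genes were not compared in this way. The coefficient of variation of the genes themselves was 7.47% for C1qa, 9.24% for C1qb and 9.75% for C1qc. The sum of the 3 was 63.6 to 81.5 CPM in these hearts and 119 to 213 CPM in the noted libraries. In the noted libraries C1qb was 0.850 to 0.950 times C1qa and C1qc 0.714 to 0.907 times C1qa, so the C1qc ratio lay below that of all 9 others. Over all 13 hearts the coefficient of variation was 6.67% for the C1qb ratio and 10.98% for the C1qc ratio.

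C1qa had 50.8, 46.1, 26.1, 26.0 and 29.0 CPM in E3A/E3A replicates 1 to 5, 75.2, 25.6, 27.3 and 25.5 CPM in WT/E3A replicates 1 to 4, and 63.6, 29.6, 24.8 and 23.4 CPM in WT/WT replicates 1 to 4. In every genotype the noted libraries were above the rest, and without them the genotypes overlapped. In the 9 libraries the E3A/E3A hearts differed from WT/WT by a log2 fold change of 0.06 for C1qa (interval -0.12 to 0.23), 0.12 for C1qb (-0.09 to 0.33) and 0.07 for C1qc (-0.15 to 0.29), with edgeR adjusted p from 0.865 to 0.938. With 13 libraries the values were 0.01, -0.02 and -0.14, with intervals that reached from -1.04 to 0.99 for C1qb. The sign of C1qb and C1qc thus differed between the 13 and the 9 libraries.

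Set against the other 9, the noted libraries moved the members in opposite directions. All 4 were above all 9 for C1qb (log2 ratio of means 1.32), C1qa (1.16), C1qc (0.92) and Csf1r (0.46), and all 4 were below all 9 for Cd68 (-1.60) and Mrc1 (-0.62). Cd163 (0.07), Lyz2 (-0.03), Cx3cr1 (-0.03) and Fcgr1 (-0.14) overlapped. So 6 of 10 members stood apart, beside 53.0% of all genes tested, of which 25.9% were above and 27.1% below. The note is the submitters' own and may rest on these data, so the difference is given as a description.

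The GC content of the transcripts moved with this difference. Over 13733 genes with a known GC content, split into 5 equal bins from low to high, the median log2 ratio of the noted libraries to the others was -0.79, -0.34, -0.01, 0.30 and 0.60. C1qa (59.5% GC), C1qc (57.5%) and C1qb (57.4%) belong to the highest bin and Mrc1 (43.4%) to the lowest. C1qa and C1qb lay above the upper quartile of their bin, 0.92, while C1qc and Mrc1 lay within the quartiles of theirs. Cd163, at 47.9% GC, stood at 0.07, above the upper quartile of 0.04 in the second bin. Lyz2, Cx3cr1 and Fcgr1, in the middle bin, had ratios near 0. Cd68, at 52.9% GC, was at -1.60 in a bin whose quartiles are -0.04 and 0.63, and so went the other way from genes of like composition. In all, 6 of 10 members lay within the quartiles of their bin. The part of GC content, or of library preparation or RNA quality, in these differences was not tested.

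**Figure D3:**
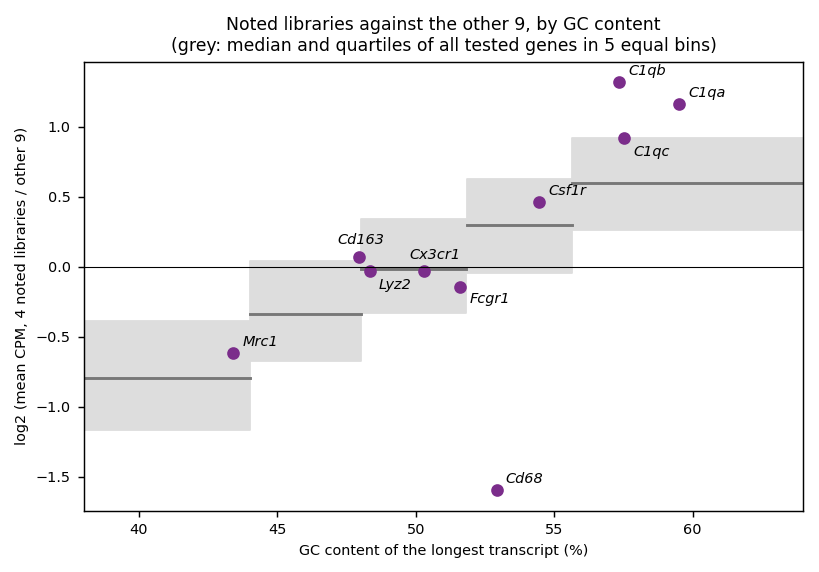
Log2 ratio of the mean CPM in the 4 noted libraries to that in the other 9 (vertical axis) against the GC content of each member's longest transcript (horizontal axis, %). Purple points are the 10 macrophage markers, and grey lines and boxes give the median and quartiles of all tested genes in 5 equal bins. C1qa, C1qb and C1qc lie at the upper right, Mrc1 at the lower left and Cd68, at -1.60, far below its bin.

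Cd163 and Cx3cr1 were the members that varied most between the 9 hearts. Over all 13 the coefficient of variation was higher for C1qb (54.4%), C1qa (46.9%), Cd68 (43.1%) and C1qc (42.5%) than for Cx3cr1 (35.6%), and Cd163 (19.8%) ranked below Mrc1 (21.8%) and Fcgr1 (20.6%). Cd163, the scavenger receptor that takes up haemoglobin bound to haptoglobin, had 19.1, 24.6, 18.8, 17.0 and 28.3 CPM in E3A/E3A replicates 1 to 5, 28.3, 20.3, 24.4 and 27.3 CPM in WT/E3A replicates 1 to 4, and 17.7, 19.9, 16.8 and 19.4 CPM in WT/WT replicates 1 to 4. All 4 WT/E3A hearts were above all 4 WT/WT hearts, with the E3A/E3A hearts spread across both. The WT/E3A hearts differed from WT/WT by a log2 fold change of 0.44 (SE 0.17, interval 0.08 to 0.81, edgeR adjusted p = 1) with 13 libraries and 0.36 (SE 0.20, interval -0.12 to 0.84, adjusted p = 0.827) with 9. Cd163 was 1 of 10 members without overlap in that comparison, against 0.598% of all genes with 13 libraries and 6.44% with 9. Within prefix C3 the WT/E3A heart had 20.3 CPM and the WT/WT heart 19.9 CPM, so the gap there was small.

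Cx3cr1, the fractalkine receptor of monocytes and some resident macrophages, had 4.38, 3.35, 6.75, 4.48 and 2.14 CPM in E3A/E3A replicates 1 to 5, 5.33, 6.40, 3.20 and 2.03 CPM in WT/E3A replicates 1 to 4, and 4.33, 4.70, 6.69 and 3.62 CPM in WT/WT replicates 1 to 4. The genotypes overlapped over most of the range. In the 9 libraries its coefficient of variation was 41.8%, where counting error gives 9.58%, and for Cd163 it was 20.1%, where counting error gives 3.96%. The other 8 members varied by 6.15% to 15.2%. Over WT/WT, the Cx3cr1 log2 fold change in E3A/E3A was -0.18 (interval -0.96 to 0.60) with 13 libraries and -0.10 (-1.35 to 1.16) with 9, so the 9-library interval holds changes of more than 1 in either direction.

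Cd163 and Cx3cr1 stood at opposite ends in 3 of the 9 hearts, while the order of the rest was mixed. Counted from the highest of the 9, WT/E3A replicate 2 ranked 4 in Cd163 and 3 in Cx3cr1, and WT/WT replicate 3 ranked 9 and 2. The 3 hearts with the most Cd163 (E3A/E3A replicate 5 and WT/E3A replicates 3 and 4) were the 3 with the least Cx3cr1, and the ratio of Cd163 to Cx3cr1 in CPM ran from 2.51 in WT/WT replicate 3 to 13.4 in WT/E3A replicate 4. Of all genes tested, 4.60% had their 3 lowest of the 9 hearts in these same hearts and 4.87% their 3 highest. Ccr2, the receptor that draws monocytes out of the marrow, is among the 4.60% with their 3 lowest levels there. It had 1.13, 1.64 and 0.895 CPM in these hearts, with WT/WT replicate 4 close above at 1.65 CPM. The noted libraries did not all follow: WT/E3A replicate 1 had the second highest Cd163 of the 13 (28.3 CPM) with a Cx3cr1 of 5.33 CPM, and WT/WT replicate 1 had 17.7 CPM of Cd163 with 4.33 CPM of Cx3cr1. Ccr2 in the noted libraries was at 0.447 to 1.32 CPM. The order also divided hearts of 1 genotype: E3A/E3A replicates 3 and 4 had Cd163 levels (18.8 and 17.0 CPM) within the range of the WT/WT hearts, and E3A/E3A replicate 3 had the most Cx3cr1 of all.

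Cd163 is known to be induced by glucocorticoids. After the values of Cd163 were seen, 5 genes known to respond to these hormones, Fkbp5, Tsc22d3, Zbtb16, Per1 and Klf15, were looked up, and all 5 had their 3 highest of the 9 hearts in the same 3. Zbtb16, a transcription factor, had 31.6, 28.1 and 86.3 CPM in E3A/E3A replicates 3 to 5, 50.8, 69.8 and 106 CPM in WT/E3A replicates 2 to 4, and 48.4, 34.2 and 40.9 CPM in WT/WT replicates 2 to 4. Fkbp5, a co-chaperone of the glucocorticoid receptor, had 11.6, 16.1 and 37.2 CPM in those E3A/E3A hearts, 11.7, 19.0 and 27.0 CPM in those WT/E3A hearts, and 12.8, 12.7 and 11.01 CPM in those WT/WT hearts. Over all 13 hearts, 1 of these 5 genes, Zbtb16, had its 3 highest levels in these 3 hearts. Fkbp5 was highest in E3A/E3A replicate 2 (41.2 CPM), and in WT/WT replicate 1, low in Cd163, it had 22.2 CPM, above WT/E3A replicate 3. The part of these genes in the level of Cd163 was not tested.

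**Figure D4:**
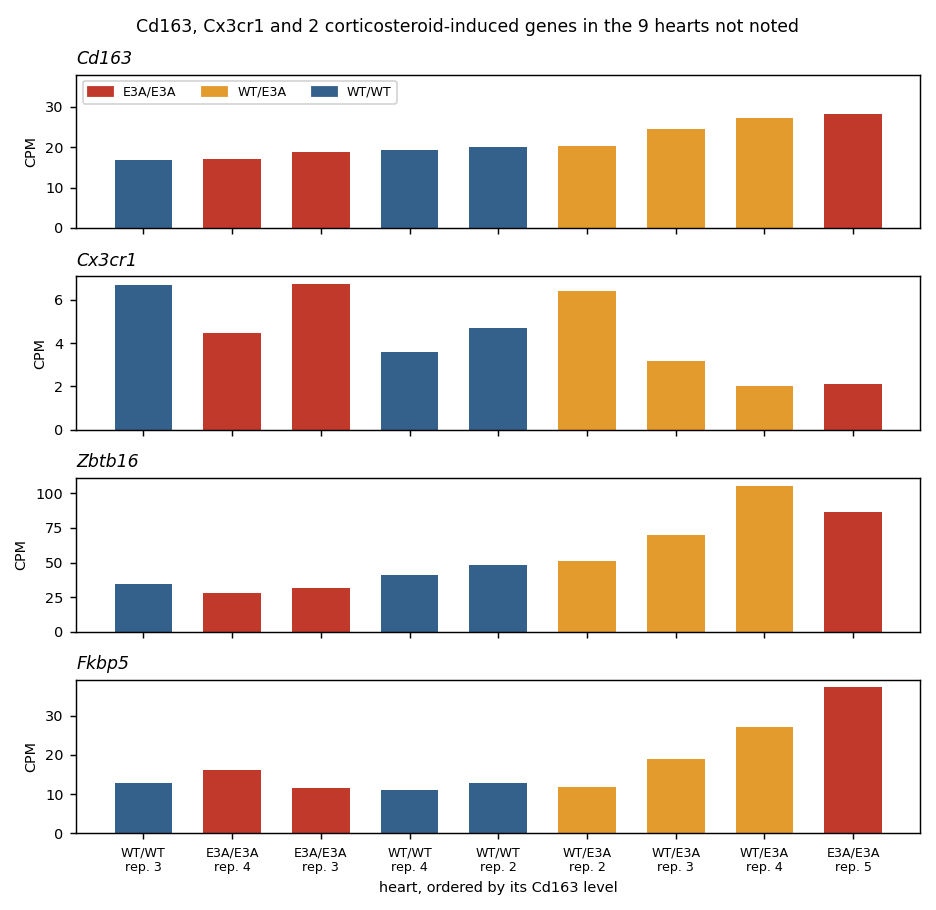
CPM of Cd163, Cx3cr1, Zbtb16 and Fkbp5 (vertical axes) in each of the 9 hearts not noted as potential outliers, ordered from low to high Cd163 and coloured by genotype. The 3 hearts at the right have the 3 highest levels of Cd163, Zbtb16 and Fkbp5 and the 3 lowest of Cx3cr1.

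Other genes of the macrophage lineage gave 0 calls in E3A/E3A against WT/WT. Of 13 genes of resident macrophages, 13 had a log2 fold change above 0 with 13 libraries (median 0.25) and 11 with 9 (median 0.21). Of these, 0 were called in either. Of all genes tested, 43.7% with 13 libraries and 50.6% with 9 were above 0. An unadjusted edgeR p under 0.05 was reached by 1.2% and 7.69% of all genes. It was reached by 1 of these resident macrophage genes with 13 libraries and by 5 with 9. By abundance the list was led by Gas6, F13a1 and Lyve1. With 13 libraries Gas6, a bridge between dying cells and phagocyte receptors, was at 0.08 (SE 0.09, edgeR adjusted p = 1). F13a1, a transglutaminase subunit, was at 0.40 (SE 0.10, adjusted p = 1) and Lyve1, a hyaluronan receptor, at 0.37 (SE 0.30, adjusted p = 1). Gas6 averaged 184 CPM over the 13 hearts, above every member (Lyz2 76.2 CPM), and which cells account for its level was not tested. In the 9 libraries F13a1 was at 0.37 (SE 0.08, edgeR adjusted p = 0.108), with 38.9 ± 2.57 CPM in E3A/E3A, 35.5 ± 4.27 CPM in WT/E3A and 30.1 ± 1.49 CPM in WT/WT (SD, n = 3 each). All 5 E3A/E3A hearts (36.5 to 41.9 CPM) lay above all 4 WT/WT hearts (26.8 to 31.2 CPM), as for 0.299% of all genes. Genes of recruited monocytes were sparse, with a median of 0.02 over the 6 of 11 tested with 13 libraries and of -0.17 over the 5 tested with 9. Ccr2 averaged 1.61 CPM over the 13 hearts, with a log2 fold change of -0.23 (SE 0.53, edgeR adjusted p = 1) with these.

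The partners of the members were likewise without a call, with 1 exception. Ligands of the CSF1 receptor and lineage factors had 0 of 11 called and a median of 0.15 with 13 libraries and 0.20 with 9, the complement cascade 0 of 15 (0.06 and 0.10), and Fc gamma receptors with their signalling 0 of 11 (0.07 and 0.08). Scavenger receptors and lysosomal genes had 0 of 17 called (0.03 and 0.05), chemokines and their receptors 0 of 13 (0.02 and -0.01), and pan-leukocyte genes 0 of 12 (0.02 and 0.01). Csf1, the ligand itself, was at 0.02 (SE 0.17), Cebpb, a transcription factor of myeloid cells, at 0.52 (SE 0.44), C3, the central complement protein, at 0.14 (SE 0.10), and Syk, a kinase that relays Fc receptor signals, at 0.12 (SE 0.18), each with an edgeR adjusted p of 1 with 13 libraries. The lysosomal protease Ctsd was at -0.03 (SE 0.12), and Cx3cl1, the ligand of the Cx3cr1 product, at -0.10 (SE 0.11), also with 13 libraries and an adjusted p of 1. MHC class II genes, which mark antigen-presenting cells, had 0 of 11 called and a median of -0.11 with 13 libraries and -0.25 with 9, with their invariant chain Cd74 at -0.11 (SE 0.25) and -0.33 (SE 0.17). Of 13 activation and cytokine genes tested, Alox5, the 5-lipoxygenase that starts leukotriene synthesis, was called as lower in E3A/E3A. It had 13.8 ± 1.65 CPM in E3A/E3A (n = 5), 20.3 ± 1.50 CPM in WT/E3A (n = 4) and 25.6 ± 1.72 CPM in WT/WT (n = 4), with a log2 fold change of -0.89 against WT/WT (edgeR adjusted p = 0.0311), and -0.90 (adjusted p = 0.000115) in the 9 libraries. With 13 libraries it was the only 1 of 14387 genes called in this comparison (0.00695%), and 0.271% of all genes were called with 9. The lists were chosen with earlier results of these data known, so this call is not an independent result about the list. Alox5 is expressed by macrophages and other leukocytes, and which cells account for its level here was not tested.

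In the remaining comparisons these lists gave few calls. With WT/E3A set against WT/WT, 0 genes of the 9 macrophage, monocyte and partner lists and of the pan-leukocyte list were called with either set of libraries. Between E3A/E3A and WT/E3A only Alox5 of these lists was called, in the 9 libraries (-0.60, edgeR adjusted p = 0.0228), beside 0.0417% of all genes. Resident macrophage genes had a median of 0.06 and 0.07 for WT/E3A over WT/WT, and of 0.14 and 0.11 for E3A/E3A over WT/E3A, with 13 and with 9 libraries.

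A linear trend over 0, 1 and 2 copies of E3A and a joint test of the 3 genotypes gave 0 of 10 members as well. The trend was called for 0.0139% of all genes as lower with 13 libraries and for 0.209% as lower and 0.0557% as higher with 9. Any difference was called for 0% and 0.167% of all genes. Csf1r had a trend of 0.08 log2 units per allele in the 9 libraries (SE 0.03, edgeR adjusted p = 0.383).

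By likeness to the members as a whole, the 6 nearest genes belonged to none of the lists used here. Among 12637 genes with at least 1 CPM, the 6 whose log2 level kept the most constant distance from the mean log2 level of the members over the 9 hearts were Glt8d1, 1600012H06Rik, App, Tgfbr2, Myof and Pon2, with an SD of that distance between 0.032 and 0.042. The members' mean itself had an SD of 0.078 over these 9 hearts, which is itself small. Over the 13 libraries the SD was 0.56 for Glt8d1 and 0.075 for Myof.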

How the data were processed

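The authors deposited raw counts of reads for each gene symbol, in a file for each heart. Per the submitters' processing notes, STAR 2.4.0 and featureCounts 1.4.4 and the builds mm10 and GRCm38 were used. How reads on overlapping genes or on the other strand were counted is not given in the sources used here. Groups came from the genotype label, and replicate numbers follow the order of the samples and pair nothing. Libraries held 20.1 to 52.6 M counts, and all errors cover these hearts and counting error only.

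Counts were fitted in R 4.3.3 with edgeR 4.0.16 (filterByExpr, TMM, robust quasi-likelihood test, 1 fit over the 3 genotypes) and adjusted by Benjamini-Hochberg over all genes. The script was tested on simulated data. The alternatives, with DESeq2 1.42.0 and limma 3.58.1 among them, are listed in the closing section. Gene positions and promoters are from RefSeq (GRCm38.p6), and lengths and GC content from GENCODE. The members and the 23 other lists were chosen with earlier results of these data known. Named genes were all members, any called gene of another list or else up to its 3 most abundant genes, and the 6 genes most like the members. Not all of the abundant genes are printed.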

Additional observations from a re-analysis of the deposited data

Results flagged for a closer look

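In 9 of the 30 sets of a member and a genotype, 1 heart stood far from the others of its group by Dixon's criterion, the gap to the nearest heart divided by the range of the group. Chance alone gives about 1 in 20 such sets. Each of the 9 is WT/E3A replicate 1 or WT/WT replicate 1, the single library of its genotype noted as a potential outlier. Higher than the rest of its group stood WT/E3A replicate 1 for C1qa (gap 0.964 of the range), C1qb (0.944), Csf1r (0.933) and C1qc (0.893). WT/WT replicate 1 was higher for C1qb (0.860), C1qa (0.846) and C1qc (0.835) and lower for Mrc1 (0.941) and Cd68 (0.861). In E3A/E3A, where 2 of 5 libraries carry the note, 0 sets stood out in this way. The criterion can miss 2 hearts that stand apart together, because it takes the gap to the nearest heart. For C1qa the noted E3A/E3A hearts had 50.8 and 46.1 CPM, and the others 26.0 to 29.0 CPM. A cause was not tested.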

How the results depend on the processing

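Under 32 alternatives, 22 that leave out 1 library and 10 others, 0 of 10 members were called in any comparison. Apart from the fit on the 9 libraries, the share of all genes called under these alternatives is not given here. The lowest edgeR adjusted p was 0.0697, for Lyz2 in E3A/E3A against WT/WT, in the 9 libraries without WT/WT replicate 2 (log2 fold change 0.32). With that heart, the highest in Lyz2, the value was 0.18. The sign of a member's log2 fold change turned in 29 of 300 values under the other alternatives, none of them called, and the cause was not tested. Without the 4 noted libraries, the sign turned for C1qb (0.12) and C1qc (0.071) in E3A/E3A against WT/WT, and C1qa (0.045) and C1qb (0.044) in E3A/E3A against WT/E3A. With limma-voom, the sign turned for C1qb (0.082) in E3A/E3A against WT/WT. With limma-voom and library quality weights, the sign turned for C1qb (0.21) and C1qc (0.11) in E3A/E3A against WT/WT, Lyz2 (0.020) in WT/E3A against WT/WT, and C1qa (0.060) and C1qb (0.053) in E3A/E3A against WT/E3A. With the title prefix as a block, the sign turned for C1qa (-0.31) in E3A/E3A against WT/WT, C1qc (-0.031), Fcgr1 (0.32) and Cx3cr1 (0.051) in WT/E3A against WT/WT, and Csf1r (-0.042) and Cx3cr1 (-0.078) in E3A/E3A against WT/E3A. With the potential outlier note as a covariate, the sign turned for C1qa (-0.10) in E3A/E3A against WT/WT. With the 9 libraries and the prefix block, the sign turned for Lyz2 (-0.087), C1qa (-0.13) and Cx3cr1 (0.17) in E3A/E3A against WT/WT, C1qa (-0.17), C1qb (-0.10), C1qc (-0.047), Fcgr1 (0.44) and Cx3cr1 (0.053) in WT/E3A against WT/WT, and C1qa (0.039) and C1qb (0.018) in E3A/E3A against WT/E3A. With RLE size factors, the sign turned for Cx3cr1 (-0.0077) in E3A/E3A against WT/E3A. With DESeq2, the sign turned for Cx3cr1 (-0.012) in E3A/E3A against WT/E3A. The prefix block leaves WT/WT replicates 3 and 4, alone in their prefix, without information on genotype, so in the 9 libraries its comparisons with WT/WT rest on WT/WT replicate 2.

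Leaving out each library in turn, from the 13 or from the 9, turned a sign at least once in 23 of 30 results. In E3A/E3A against WT/WT the range was -0.22 to 0.31 for Cd68, -0.071 to 0.31 for Cd163, -0.0052 to 0.27 for Mrc1, -0.15 to 0.46 for C1qa, -0.21 to 0.55 for C1qb, -0.28 to 0.26 for C1qc and -0.53 to 0.21 for Cx3cr1. In WT/E3A against WT/WT the range was -0.27 to 0.40 for Cd68, -0.083 to 0.24 for Csf1r, -0.12 to 0.23 for Mrc1, -0.13 to 0.094 for Lyz2, -0.44 to 0.57 for C1qa, -0.50 to 0.72 for C1qb, -0.31 to 0.58 for C1qc, -0.24 to 0.11 for Fcgr1 and -0.88 to 0.044 for Cx3cr1. In E3A/E3A against WT/E3A the range was -0.28 to 0.25 for Cd68, -0.015 to 0.24 for Csf1r, -0.044 to 0.21 for Mrc1, -0.27 to 0.45 for C1qa, -0.35 to 0.48 for C1qb, -0.47 to 0.17 for C1qc and -0.23 to 0.78 for Cx3cr1. It turned in none of these fits for Csf1r, Lyz2 and Fcgr1 in E3A/E3A against WT/WT; Cd163 in WT/E3A against WT/WT; Cd163, Lyz2 and Fcgr1 in E3A/E3A against WT/E3A. The depth limits Fcgr1 most, with 25 to 75 reads per library. No paired analysis was possible because the replicate numbers follow the order of the samples and the labels pair no hearts.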

Other observations

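Lgals3, which encodes galectin-3, a lectin made by activated macrophages and other cells, was singled out after its values were seen. It had 1.83, 1.38, 1.67, 1.49 and 1.90 CPM in E3A/E3A replicates 1 to 5, 1.20, 1.08, 1.18 and 0.976 CPM in WT/E3A replicates 1 to 4, and 1.08, 1.08, 0.984 and 1.03 CPM in WT/WT replicates 1 to 4. All 5 E3A/E3A hearts were above the 8 others, the noted libraries included, which holds for 0.0556% of all genes tested. The log2 fold change against WT/WT was 0.66 (edgeR adjusted p = 0.758) with 13 libraries and 0.69 (adjusted p = 0.205) with 9, and it was not called. The libraries held 23 to 72 reads of it.

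Of the lists of other cell types, epicardial and mesothelial markers had the highest median log2 fold change in E3A/E3A against WT/WT, at 0.74 with 13 libraries (6 of 6 tested genes higher) and 1.03 with 9 (5 of 5). They are sparse: their summed level was 7.77 to 15.6 CPM in E3A/E3A hearts, 6.497 to 14.8 CPM in WT/E3A hearts and 5.77 to 10.7 CPM in WT/WT hearts, and the genotypes overlapped. White adipocyte markers were lower for 4 of 4 tested genes with 13 libraries (median -0.84) and for 2 of 4 with 9 (-0.05). Mast cell markers were higher for 5 of 5 tested genes, with a median of 0.31 with 13 libraries and 0.19 with 9. Fibroblast markers were higher for 5 of 8 genes with 13 libraries (0.03) and for 8 of 8 with 9 (0.12). The summed level of the fibroblast markers averaged 3321 CPM in E3A/E3A, 3731 CPM in WT/E3A and 3457 CPM in WT/WT with 13 libraries, and 2699 CPM in E3A/E3A, 2551 CPM in WT/E3A and 2439 CPM in WT/WT with 9, so the order of the genotypes differed between the sets. Of these 4 lists, 0 genes were called by edgeR with either set. An unadjusted p under 0.05 was reached, in the order given, by 1, 1, 2 and 0 genes with 13 libraries and by 0, 1, 1 and 4 genes with 9. Of all genes tested, 1.2% with 13 libraries and 7.69% with 9 reached that level. The share of all genes above 0 was 43.7% and 50.6%.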
